A study of Mus musculus and Homo sapiens
Mus musculus with 14 samples.

Results

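Replication-dependent histone genes were examined in libraries made with Light-Seq, a method that reverse transcribes RNA inside fixed cells and tags the cDNA of chosen cells with a DNA barcode by light. The genes were chosen by symbol. They are the protein coding genes whose names follow the cluster nomenclature of the core histones (H2AC, H2BC, H3C and H4C with a number) or of the linker histones H1-1 to H1-5 (H1f1 to H1f5 in mouse). The rule gave 65 of 60605 human genes (5 H1, 16 H2A, 17 H2B, 13 H3 and 14 H4) and 63 of 55359 mouse genes (5 H1, 17 H2A, 17 H2B, 12 H3 and 12 H4). The mouse gene H13 also fits the letters of the rule, but it encodes the signal peptide peptidase and not a histone, so it was left out and its share of UMIs is given apart.

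Histone proteins package DNA, and a cell that copies its genome needs new histones at the same pace. Most of them come from clustered genes without introns that are transcribed in S phase, and their mRNAs end in a short stem-loop instead of a poly(A) tail. The stem-loop is bound by the protein SLBP, and the end is cut by a complex that is guided by the U7 small nuclear RNA. The mRNAs are degraded when DNA synthesis stops. Cells that have left the cycle draw on replication-independent variants such as H3.3 and H1.0, whose mRNAs are polyadenylated, and some clustered genes can also give polyadenylated transcripts in differentiated cells. The reverse transcription primer held a random stretch followed by fixed G bases at its priming end and no oligo(dT), so that RNA without a poly(A) tail could be primed too.

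Dividing cells came from a mixed culture of human HEK cells and mouse 3T3 fibroblasts, which were barcoded apart in each of 3 wells. The study reports that a minor part of the reads of each species carried the barcode of the other. Per its methods, culture UMIs were counted by mapping the reads of a barcode to its own species only. The part of such reads in the histone shares was not tested. The labels call the human line HEK293T, whereas the methods of the study name a stable HEK293 line with GFP under the CMV promoter. The labels name 3T3 cells, an immortalized mouse fibroblast line. Post-mitotic tissue came from retinas of wild-type CD1 mice in the third postnatal week, with no treatment named. In 4 retinal sections of 1 animal the outer nuclear layer (ONL, the cell bodies of rods and cones), the bipolar cell layer (BCL) and the ganglion cell layer (GCL) were barcoded by region. In 5 sections of a separate experiment, amacrine cells that stained for tyrosine hydroxylase (TH+, the dopaminergic type) and neighboring amacrine cells that did not (TH-) were barcoded. The methods speak of a single source animal, and the labels tie none of these 5 sections to another one. Counts are unique molecular identifiers (UMIs), each marking 1 cDNA molecule, and levels are given as UMIs of the gene per 1000000 UMIs of the library (CPM). Log2 differences come from fits with another scaling between libraries (TMM, in edgeR), so they need not equal the ratio of the CPM values. Wells held 47698 to 102551 UMIs for HEK and 135565 to 206187 for 3T3, and retinal libraries 30317 to 801105. The study's methods call the wells and the sections technical replicates, so the p-values measure technical spread. Culture and retina differed in cell type, preparation, experiment and sequencing run together, and HEK also in species, so these cannot be told apart.

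Labelled mouse cell types were checked against their markers. The rod markers Gnat1, Sag, Pde6b and Nrl were all found in the ONL, where these 4 held 3.04% of UMIs (range 2.62 to 3.30, n = 4), and each was at 0 in 3T3 cells. They were also present in the other retinal libraries, with means of 0.785% in BCL, 0.290% in GCL, 1.4% in TH+ and 0.811% in TH- libraries. Fibroblast markers (5 of 5 detected) held 3.57% of UMIs in 3T3 cells and at most a mean of 0.0260% in the retina. Bipolar markers had their highest mean in BCL libraries (0.579%), ganglion cell markers in GCL libraries (0.330%) and dopaminergic markers in TH+ libraries (0.319% against 0.0187% in TH-). Amacrine markers held 0.263% in TH+ and 0.337% in TH- libraries. Markers of Muller glia, the radial support cells of the retina, were present in all of them, at 0.670% in BCL and 0.459% in TH- libraries, above the bipolar and the amacrine markers there, and at 0.313% in TH+, 0.135% in GCL and 0.0828% in ONL libraries. Genes of mitosis held 0.291% of UMIs in 3T3 and 0.312% in HEK cells, and between 0.000496% and 0.00148% in the means of the 5 retinal groups.

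The stem-loop that gives these mRNAs their 3′ end was looked for in the mouse genome first, because the values below differ between genes whose annotated models differ in length beyond it. All 63 mouse members matched a gene of GRCm39 (GENCODE vM39), 53 of them on chromosome 13 and 10 on chromosome 3. The pattern searched was written by hand from the known form of these stem-loops: a left stem GGNNCT, directly followed by the loop TTTN and the right stem AGNNCC, with N for any base. On the sense strand, within 120 bases after every annotated stop codon, it was found in 59 members (93.7%) and in 11 of 21599 other protein coding genes (0.0509%). Of these 11, 8 are histone genes as well, among them H2ax. The symbols of 4 of the 8 (H2ac25, H2bc26, H2bc27 and H4c16) fit the rule in this annotation, but the deposited tables list them under other names, so they are not among the members. H4c16, listed as H4f16, had 149 UMIs in 3T3 cells, 358 in the layers and 69 in amacrine cells. In the same order H2bc27 had 1, 59 and 20, H2ac25 had 0, 14 and 4, and H2bc26 had 0, 3 and 0. These counts stand beside 540880, 5762223 and 1057063 UMIs of all genes, so H2bc27 and H2ac25 were not higher in 3T3 cells. In the members the motif lay 21 to 58 bases after the stop codon (median 30). Only 6 spellings occurred, and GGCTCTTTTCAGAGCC accounted for 39 members, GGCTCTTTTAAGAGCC for 8 and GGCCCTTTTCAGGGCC for 7. A polyadenylation hexamer (AATAAA) in the last 50 bases of the annotated gene was found in 11 members (17.5%) and in 56.3% of the other protein coding genes. The 4 members without the motif in this window were H2ac22, H2bc21, H3c8 and H4c1, which says only that these letters are not there.

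Shown next are the 3′ ends of the 5 members that held most of the histone UMIs in the retina and of 3 that were far lower in the retina than in 3T3 cells. Each is read 5′ to 3′ on the strand of the gene, with the stem-loop in capitals.
H1f2: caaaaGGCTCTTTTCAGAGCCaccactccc
H1f4: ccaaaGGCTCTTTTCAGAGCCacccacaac
H4c3: caaaaGGCCCTTTTCAGGGCCacccacaaa
H4c4: ccaaaGGCCCTTTTCAGGGCCactaccttc
H4c14: ctaacGGCCCTTTTTAGGGCCaaccacagt
H1f5: ccaaaGGCTCTTTTCAGAGCCacctagaga
H3c11: caaaaGGCTCTTTTCAGAGCCccctccttt
H2bc13: tcaaaGGCTCTTTTAAGAGCCacccacact

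The linker histone genes H1f2, H1f4 and H1f5 carried identical stem-loops. Those of H4c3 and H4c4 were identical to each other, and that of H4c14 differed from them in the last base of the loop. The models differed in what follows. That of H1f2 (chr13:23922791-23924350, plus strand) went on for 840 annotated bases past the stem-loop (chr13:23923495-23923510). H1f4 (chr13:23804612-23806541, minus strand) went on for 1153 bases, H4c3 (chr13:23881618-23882437, minus strand) for 454, H4c4 (chr13:23765581-23766718, plus strand) for 770 and H4c14 (chr3:96168998-96170627, minus strand) for 1257. The models of H1f5 (chr13:21964053-21964795), H3c11 (chr13:21967130-21967540) and H2bc13 (chr13:21899933-21900313), all on the minus strand, ended at the stop codon, before the stem-loop.

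Histone genes took a larger share of the transcriptome in the cultured cells than in any retinal group. In HEK cells the share of UMIs was 0.323%, 0.376% and 0.275% in the 3 wells (0.325% ± 0.0509, SD, n = 3). In 3T3 cells it was 0.207%, 0.174% and 0.265% (0.215% ± 0.0461, n = 3). The lowest culture library lay above the highest retinal one. Among the layers the ONL held 0.0759%, 0.0819%, 0.0854% and 0.0822% (0.0813% ± 0.00396, n = 4). The BCL held 0.0469%, 0.0456%, 0.0534% and 0.0470% (0.0482% ± 0.00349), and the GCL held 0.0280%, 0.0339%, 0.0340% and 0.0341% (0.0325% ± 0.00299). The 3 layers did not overlap in the order ONL, BCL, GCL. The amacrine libraries lay between 0.0160% and 0.0411% for TH+ (0.0304% ± 0.00958, n = 5) and between 0.0256% and 0.0399% for TH- (0.0323% ± 0.00575, n = 5), and these overlapped each other and the GCL. The means in 3T3 cells were 2.64 times that of the ONL, 4.46 times that of the BCL, 6.61 times that of the GCL, 7.07 times that of TH+ and 6.65 times that of TH- cells. A bulk share cannot separate fewer cells with such RNA from less of it per cell. Binomial 95% intervals (Wilson) ran from 0.242% to 0.311% for the lowest HEK well and from 0.157% to 0.193% for the lowest 3T3 well, against 0.0772% to 0.0945% for the highest ONL library, and they cover counting error only.

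**Figure D1:**
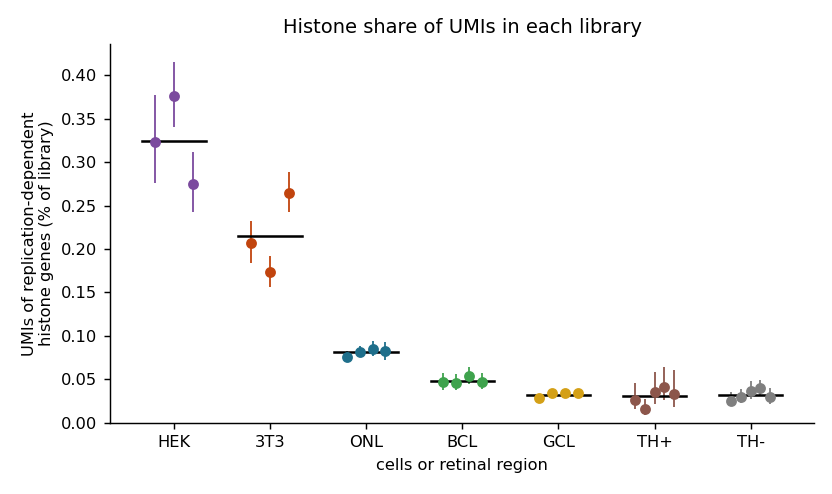
Share of UMIs from replication-dependent histone genes in percent of each library (y axis) for HEK and 3T3 wells and for ONL, BCL, GCL, TH+ and TH- libraries (x axis). Points are libraries, thin vertical lines are Wilson 95% intervals and black bars are group means. All 6 culture libraries lie at 0.174% or above, all 22 retinal libraries at 0.0854% or below.

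The gap between 3T3 cells and the ONL differed between the linker histones and the core histones. H1 genes held 0.0938% of UMIs in 3T3 cells (range 0.0747 to 0.118) and 0.0574% in the ONL (0.0496 to 0.0622), a ratio of 1.63. The ranges did not overlap. For H4 the mean shares were 0.0537% in 3T3 cells and 0.0176% in the ONL, a ratio of 3.05. The families that form the rest of the nucleosome core showed wider gaps. H2B held 0.0375% in 3T3 cells and 0.00403% in the ONL (9.29 times), H2A 0.00700% and 0.000935% (7.48 times), and H3 0.0230% and 0.00139% (16.5 times). The H2A share of the ONL rested on section 3, without which it was 0.000561% and the ratio 12.5. That H1 had the smallest gap held for the ONL and not for the other retinal groups. The 3T3 mean of H1 was 4.08 times that of BCL, 6.03 of GCL, 5.98 of TH+ and 7.03 of TH- libraries, and that of H4 2.93, 4.21, 4.49 and 3.76 times. For all core histones together the ratio was 6.38 in TH- cells, below that of H1. With H1 left out, the 3T3 share was 0.121%, and ONL and BCL had nearly the same share, 0.0240% and 0.0252%, followed by the GCL with 0.0169%. The higher total of the ONL was therefore carried by H1, at 0.0574% against 0.0230% in BCL and 0.0156% in GCL. Within H1 it was H1f2 and H1f4 that did so, with 96.4% of the H1 UMIs of the ONL (1227 of 1273) and 54.4% in 3T3 cells. The small H1 ratio rested on these genes too. The 3T3 share of H1f2 and H1f4 was 0.927 times that of the ONL, and the share of H1f1, H1f3 and H1f5 was 19.9 times as large (0.0426% against 0.00214%). HEK cells had a different make-up, with H2B first at 0.135%, H1 at 0.0827%, H2A at 0.0531%, H3 at 0.0355% and H4 last at 0.0181%. Species and gene models differ between these cells, and how far reads map uniquely was examined for mouse members only, so family shares of HEK and 3T3 cells were not compared by a test.

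**Figure D2:**
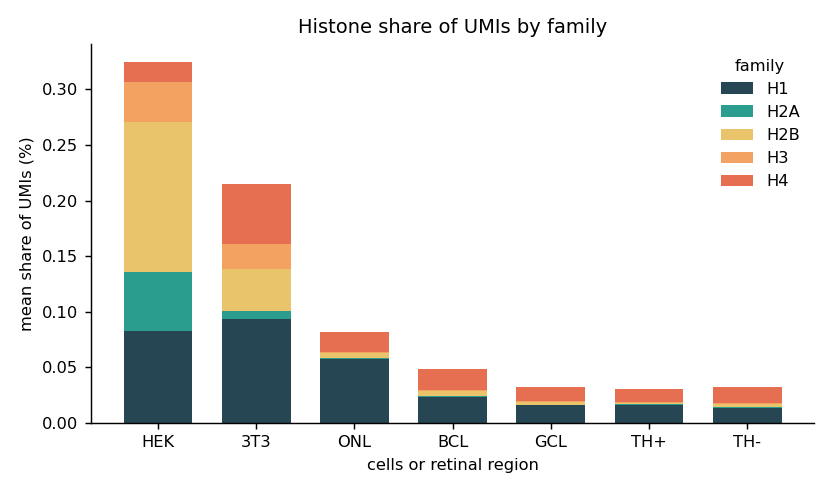
Mean share of UMIs in percent (y axis), stacked by histone family, for HEK (n = 3), 3T3 (n = 3), ONL, BCL, GCL (n = 4 each), TH+ and TH- (n = 5 each). H1 and H4 make up most of each retinal bar, whereas H2A, H2B and H3 are thin there and H2B is the widest segment in HEK cells.

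In HEK cells 37 of the 65 human members had at least 1 UMI, 22 of them in every well, and 783 UMIs were counted in all. H1-4, a linker histone, led with 127 UMIs (538 ± 83.8 CPM, n = 3). By UMIs summed over the wells it was followed by the H2B genes H2BC21 (262 ± 10.8 CPM), H2BC18 (242 ± 45.6 CPM) and H2BC17 (194 ± 136 CPM). Further down in that order were the linker histone H1-2 (223 ± 110 CPM), the H2A genes H2AC11 (187 ± 28.2 CPM) and H2AC12 (157 ± 80.4 CPM), and H3C2, an H3 gene (165 ± 62.4 CPM). By mean CPM H1-2 stood above H2BC17. These 8 genes held 60.9% of the human histone UMIs. Among them H2BC21 varied least between wells, and H2BC17 ranged from 41.9 to 302 CPM. Per kilobase of deposited gene length the order was H1-4 (683 CPM per kb), H2BC17 (415), H2AC12 (344), H3C2 (322) and H1-2 (305). The remaining 28 members had no UMI (2 H1, 7 H2A, 3 H2B, 8 H3 and 8 H4).

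In 3T3 cells 42 of 63 mouse members had a UMI, 30 of them in every well, and in the layers 39 did, 7 of them in every library. The retinal UMIs were concentrated on few genes. H1f2, H1f4, H4c3, H4c4 and H4c14 together held 84.1% of histone UMIs in the layers (2591 of 3082) and 75.1% in amacrine cells (250 of 333), but 46% in 3T3 cells (536 of 1165). They were chosen as the leaders of the retina, and the 5 leaders of 3T3 cells (H1f4, H4c4, H1f5, H1f2 and H1f3) held 55.1% there. The other 58 members held 0.116% of all UMIs in 3T3 cells, 0.00852% in the layers and 0.00785% in amacrine cells. Members with a UMI in 3T3 cells and in no retinal library numbered 5, and those with the reverse were H2bc21, H3c15 and H4c2.

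**Figure D3:**
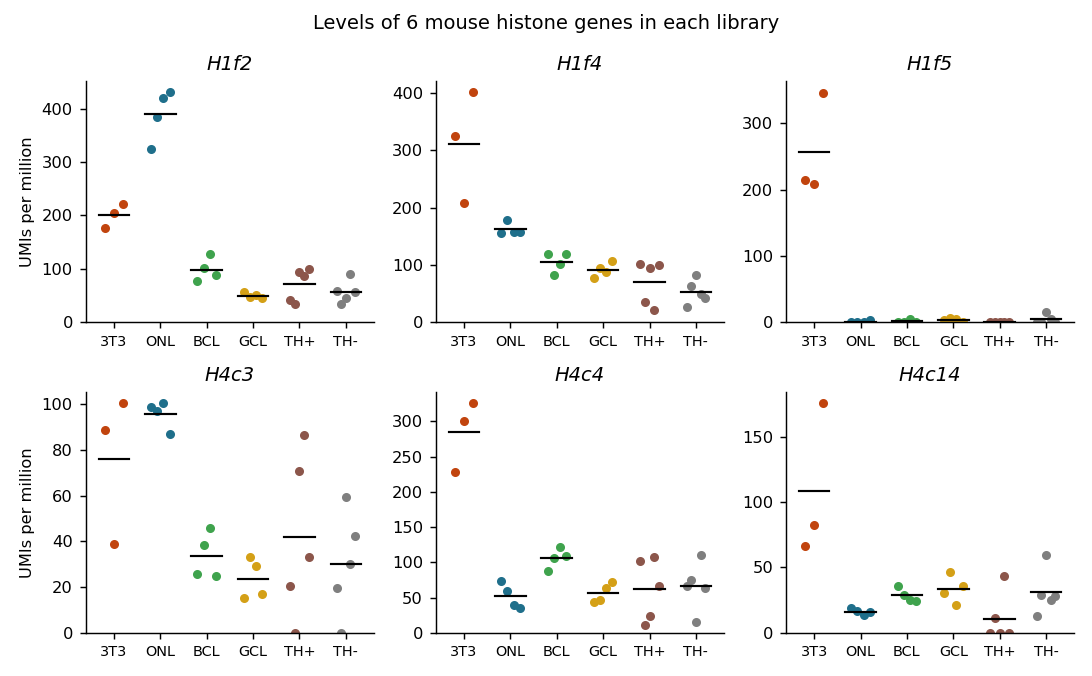
Level of 6 mouse histone genes (1 panel each) in CPM (y axes, linear and set for each gene) in 3T3 wells and in ONL, BCL, GCL, TH+ and TH- libraries (x axes). Points are libraries and black bars group means. H1f5 is near 0 in every retinal group, H1f2 is highest in the ONL, and the ONL points of H4c3 overlap those of the 3T3 wells.

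H1f5, one of the somatic linker histones, had the largest fitted difference between 3T3 cells and layer sections. It stood at 213.9, 208.5 and 346.5 CPM in the 3T3 wells. In the 12 layer libraries 12 UMIs were counted in all (lowest 0, highest 5.99 CPM, in a GCL library), and in the amacrine libraries 3, all in TH- cells. No retinal library came near the wells. With the libraries of each section summed, H1f5 was higher in 3T3 cells than in layer sections by 6.45 ± 0.33 on the log2 scale (SE, from edgeR's quasi-likelihood fit). H1f5 passed the filter on low counts through its 3T3 counts and not among the layer libraries alone, so this difference is a description. The same holds for H3c11, H2bc13, H2bc9 and H3c4.

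H3c11, which encodes an H3 protein, stood at 125.4, 58.2 and 100.4 CPM in the wells and between 0 and 6.45 CPM in the layers (median 2.98) (log2 difference 4.65 ± 0.41). H2bc13, an H2B gene, stood at 81.1, 53.3 and 80.4 CPM in the wells, at 0 in all 4 BCL and all 5 TH+ libraries, and at most at 7.44 CPM elsewhere in the retina (4.94 ± 0.50 against the layers). H2bc9 stood at 59.0, 38.8 and 95.4 CPM in the wells and was at 0 in all 10 amacrine libraries, where the pooled level in 3T3 cells was at least 22.8-fold higher than the limit set by 3 counts. The wells lay above every retinal library for each of these genes.

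H1f3, another linker histone, stood at 147.5, 97 and 130.6 CPM in the wells and between 0 and 15.5 CPM in the layers (median 4.72, log2 difference 4.04 ± 0.35). H3c4, an H3 gene, stood at 73.8, 38.8 and 85.4 CPM in the wells and between 0 and 6.83 CPM in the layers (4.69 ± 0.49). Neither range overlapped.

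H1f4 and the H4 genes H4c4 and H4c14 differed by less. H1f4 stood at 324.6, 208.5 and 401.8 CPM in the wells and between 77.7 and 178.4 CPM in the 12 layer libraries (median 112, log2 difference 0.97 ± 0.17). H4c4 stood at 228.7, 300.7 and 326.4 CPM in the wells and between 35.5 and 122.0 CPM in the layers (median 67.4, log2 difference 1.81 ± 0.20). H4c14 stood at 66.4, 82.4 and 175.8 CPM in the wells and between 13.7 and 46.5 CPM in the layers (median 25.1, log2 difference 1.71 ± 0.29). For each of them every well lay above every layer library. H1f4 shares 528 annotated exon bases with H2bc6 and a further gene, and H4c4 shares 124 with H2bc6, so reads there could have been lost or split. H2bc6 itself stood at 36.9, 33.9 and 35.2 CPM in the wells and between 0 and 22.8 CPM in the layers.

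H1f2 and H4c3 behaved in another way. H1f2, a linker histone gene, stood at 177.0, 203.7 and 221.0 CPM in the wells. It stood at 324.6, 384.6, 420.0 and 431.9 CPM in the ONL, at 77.4, 100.8, 127.0 and 89.0 CPM in BCL libraries, and at 56.1, 46.5, 50.7 and 44.4 CPM in GCL libraries. The 3T3 wells therefore lay between ONL and BCL without overlap. Against summed layer sections no difference passed the test (-0.25 ± 0.18; edgeR quasi-likelihood test with Benjamini-Hochberg adjustment, adjusted p = 0.217). Against the ONL libraries alone, a comparison added after the values were seen, H1f2 was lower in 3T3 cells by -1.39 ± 0.16 (adjusted p = 1.65e-12), and against BCL (0.91 ± 0.23) and GCL (1.55 ± 0.21) it was higher.

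H4c3, an H4 gene, stood at 88.5, 38.8 and 100.4 CPM in the wells and at 98.6, 96.8, 100.4 and 87.0 CPM in the ONL. The second well lay apart, and the other wells overlapped the ONL. In the fit, H4c3 was lower in 3T3 cells than in the ONL by -0.85 ± 0.26 (adjusted p = 0.00331), but without the second well the difference was -0.50 (adjusted p = 0.135). These fitted differences are larger than the printed CPM imply, because the fit scales libraries by TMM and CPM use library totals. How far the call rests on this scaling was not tested. Against summed layer sections the fitted difference of H4c3 was 0.09 ± 0.32 (adjusted p = 0.808). Compared per kilobase of gene length, H1f2 (250 CPM per kb), H4c3 (117) and H1f4 (84.0) led in the ONL. In 3T3 cells H1f5 (345), H4c4 (251), H3c11 (230), H2bc13 (188), H1f4 (161), H1f2 (129) and H4c3 (92.6) followed each other.

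Over all mouse members, 19 of 63 passed the filter on low counts in this fit and 44 did not. Of the 19, 16 were higher in 3T3 cells than in layer sections and 0 lower, where 26.1% of all 10350 genes tested were higher and 45.6% lower. The median log2 difference was 3.69 over these 19 and -0.59 over all genes tested. Many of the 19 passed the filter through their 3T3 counts, so these counts describe them and do not support a difference. Of the 19, 9 also passed the filter among the layer libraries alone, and of these 6 were higher and 3 did not pass (H1f2, H4c3 and H2bc4, at 0.92 ± 0.49, adjusted p = 0.0915). The other 10 were all higher. The H2B genes among the higher ones, beside those named, were H2bc15 (5.24), H2bc11 (4.24), H2bc8 (3.69) and H2bc3 (3.13). H3c7 was higher by 4.43, H2bc6 by 1.86 and H1f1, a linker histone, by 1.67, of which H1f1 lost its call without the third 3T3 well (1.1, adjusted p = 0.0889). A different scaling (RLE) raised the median of all genes by 0.207 in this comparison, less than each of these differences.

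Against amacrine sections, which share the 3T3 wells with the former comparison, all 19 tested members were higher in 3T3 cells, where 26.8% of all genes were higher and 40.2% lower. H1f2 differed by 1.56 ± 0.25 and H4c3 by 1.08 ± 0.43 (adjusted p = 0.0238). H1f5 differed by 6.20 ± 0.46. Of these 19, 4 passed the filter among the amacrine libraries alone and 15 did not, so the count describes them and supports nothing. The single layers were compared with the wells after the values were seen. Of 23 members tested, 18 were higher in 3T3 cells than in ONL (25.2% of all genes) and 2 lower (39.3%), 20 higher than in BCL (23.5%) and 1 lower (36.4%), and 21 higher than in GCL (23.4%) and 1 lower (42.2%). Of these 23, 12 did not pass the filter among the layer libraries alone, and these counts too are a description. The member lower than in BCL and GCL was H2bc21, an H2B gene. It had 0 UMIs in all 3 wells, 39 in the layers and 9 in TH- cells, and its pooled level in the BCL was at least 2.92-fold higher than the limit set by 3 counts in 3T3 cells. H1f4 was higher in 3T3 cells than in ONL by 0.45 ± 0.17 (adjusted p = 0.0168), a call lost without the first or the third well or without section 1, 3 or 4 (lowest 0.020, adjusted p = 0.943). H4c3 was higher than in BCL by 1.0 ± 0.38 (adjusted p = 0.0186), a call lost without well 1 or 3 or without section 1 or 4 (lowest 0.52, adjusted p = 0.334).

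**Figure D4:**
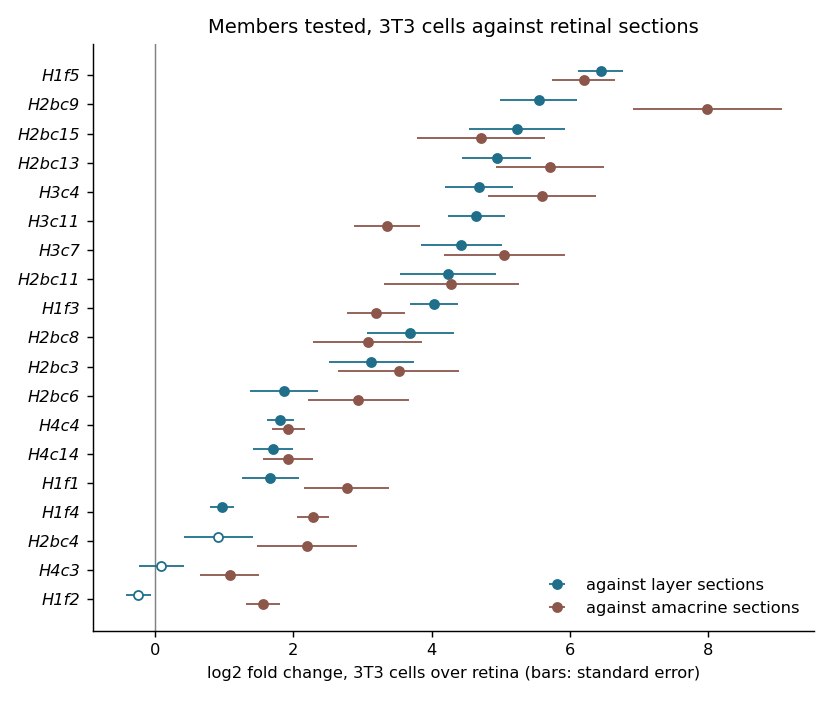
Log2 difference between 3T3 cells and layer sections or amacrine sections (x axis) for the 19 members tested (rows), with bars of 1 SE to each side. Open symbols did not reach an adjusted p of 0.05, and the position of H2bc9 against amacrine sections is a fitted value with 0 UMIs in every amacrine library. H1f2 and H4c3 lie near 0 against the layers, and H1f5 lies at 6.45.

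Among the retinal layers, 12 of 63 members passed the filter. Between ONL and BCL, 3 were higher in the ONL, where 18.5% of all 11324 genes were higher, and 1 was lower, where 18.2% were. H1f2 was higher by 2.29 ± 0.16 (adjusted p = 1.43e-17), H4c3 by 1.85 ± 0.27 and H1f4 by 0.97 ± 0.18. H4c3 stood at 25.8, 38.4, 45.7 and 24.7 CPM in BCL libraries, and H1f4 at 118.6, 81.6, 101.6 and 118.7 CPM there against 154.8, 178.4, 157.5 and 157.9 CPM in the ONL. None of the 3 genes overlapped between these layers, and how many of all genes did not was not counted. H2bc21 was lower in the ONL, at 3.74, 1.38, 4.57 and 0 CPM against 5.16, 24.0, 15.2 and 19.8 CPM in the BCL (-2.18 ± 0.69, adjusted p = 0.00923). No ONL library reached the count minimum of the filter (5.86 CPM) for H2bc21, which passed it through BCL and GCL, so this difference is a description. That call was lost without section 2 (-1.67, adjusted p = 0.130) or section 4 (-1.84, adjusted p = 0.0698). H4c4 stood at 73.6, 59.5, 38.8 and 35.5 CPM in the ONL and at 87.7, 105.5, 122.0 and 108.8 CPM in the BCL. These values did not overlap, and the difference of -0.57 ± 0.23 sat at the threshold (adjusted p = 0.05001). Muller glia markers were higher in the BCL as well, at 0.670% against 0.0828% of UMIs, and their part in these results was not tested.

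Between ONL and GCL, 6 of the 12 were higher in the ONL (29.3% of all genes) and 1 lower (32.2%). H1f2 was higher by 3.10 ± 0.14, H4c3 by 2.20 ± 0.21 and H1f4 by 1.01 ± 0.14. H3c15, an H3 gene, stood at 6.24, 4.15, 4.57 and 6.45 CPM in the ONL and at 2.55, 0, 0 and 0 CPM in the GCL (2.62 ± 0.85), without overlap. H3c15 passed the filter through ONL and BCL libraries and reached its minimum in no GCL library, so it is counted here as a description. H2bc4 stood at 12.5, 18.0, 18.3 and 9.67 CPM in the ONL and at 6.37, 3.00, 12.3 and 5.12 CPM in the GCL (1.30 ± 0.42), with an overlap of the groups, and its call was lost without section 2 (0.90, adjusted p = 0.123). H1f1 was higher by 0.93 ± 0.41 (adjusted p = 0.0468), and its call was lost without any 1 of the 4 sections. H4c14 was lower in the ONL, at 18.7, 16.6, 13.7 and 16.1 CPM against 30.6, 46.5, 21.5 and 35.9 CPM in the GCL (-0.83 ± 0.28, adjusted p = 0.00962), also without overlap, and that call was lost without section 2 (-0.65, adjusted p = 0.107).

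Between BCL and GCL, 2 were higher in the BCL (16.1% of all genes) and 0 lower (20.4%). H1f2 was higher by 0.82 ± 0.22 (adjusted p = 0.00203) and H4c4 by 0.77 ± 0.23 (adjusted p = 0.00616). At an unadjusted p under 0.05 the number was 4 of 12. By mean level, H4c4 was highest in the BCL and H4c14 lowest in the ONL, another order than that of H4c3. H1f2, H4c3 and H1f4 were highest in the ONL, where the 4 rod markers were highest as well, at 3.04% of UMIs against 0.785% and 0.290% in the other layers. Their part in the result was not tested.

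TH+ and TH- cells could be compared for 4 members. None passed, where 0.747% of all 6021 genes were higher and 0.0830% lower by edgeR. At an unadjusted p under 0.05 the number was also 0, and DESeq2 called 0. H1f2 had a median of 86.5 CPM in TH+ cells (34.3 to 99.0) and 56.4 CPM in TH- cells (34.7 to 89.8), a difference of 0.12 ± 0.44. H1f4 differed by 0.26 ± 0.46, H4c3 by 0.29 ± 0.67 and H4c4 by -0.30 ± 0.49. With the section as a block 0 members passed too, while the calls over all genes rose from 50 to 148 (96 higher and 52 lower). The TH+ libraries held 10 to 19 histone UMIs each.

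Mouse members differ in how far the gene model reaches beyond the coding sequence. The deposited gene length exceeded the coding length by 289 bases or more for 22 members and by 237 bases or less for 41, a division made after the values were seen. The 41 short models held 0.0767% of UMIs in 3T3 cells (range 0.0577 to 0.0964), 0.00438% in the ONL, 0.00449% in BCL and 0.00372% in GCL. The 3T3 mean was 17.5, 17.1 and 20.6 times that of these layers. The 22 long models held 0.138% in 3T3 cells, 0.0770% in the ONL, 0.0437% in BCL and 0.0288% in GCL, and here the 3T3 mean was 1.80, 3.16 and 4.80 times as large. Long models held 64.5% of the histone UMIs in 3T3 cells, 94.8% in the ONL, 90.7% in the BCL, 88.7% in the GCL, 90.1% in TH+ and 87.4% in TH- cells. The 5 members that led in the retina all had long models, but so did H1f3, H2bc9 and H3c4, which were low there, and 4 long models had no retinal UMI. Without these 5, the other 17 long models held 0.0401% in 3T3 cells, 0.00533% in the ONL, 0.00652% in BCL and 0.00337% in GCL, and the 3T3 mean was 7.52, 6.15 and 11.9 times as large. A gene count does not tell whether a UMI lies before or after the stem-loop, and which transcript end it belongs to was not tested.

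**Figure D5:**
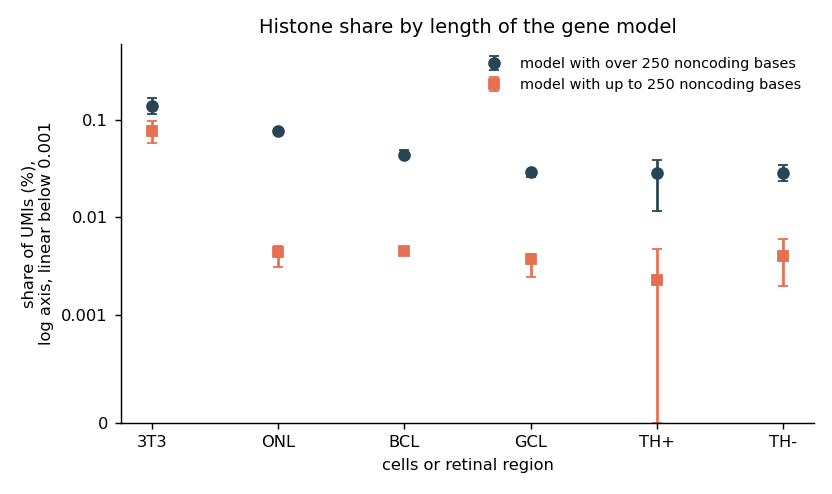
Share of UMIs in percent (y axis, log scale, linear below 0.001%) of the 22 members with long and the 41 with short gene models in 3T3 cells and the 5 retinal groups (x axis). Points are group means and bars the range over libraries. The short models fall from 0.0767% in 3T3 cells to 0.00449% or less in the retina, and the long ones from 0.138% to between 0.0281% and 0.0770%.

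Members listed at 0 do not have to be silent. In the mouse, 18 members had no UMI in any library (8 H2A, 3 H2B, 5 H3 and 2 H4, none of H1). Reads were up to 40 bases and were kept only if they mapped to 1 place. Of all 40-base windows along a member's exons, the share with an exact copy elsewhere in the genome had a median of 90.5% for the members without a UMI (2.05 to 100) and 46.9% for those with 1 (0 to 90.6). It was above 50% for 15 of 18 and for 20 of 45 respectively. Members with many copied windows, such as H3c11 (90.6%) and H2bc13 (86.8%), are therefore uncertain in level, whereas H1f5 (1.14%), H4c14 (1.76%), H1f4 (9.25%) and H1f2 (9.80%) are mostly unique. Exons shared with other genes are a further limit, present to some extent in 30 members. Among those without a UMI, H2ac18, H2ac19, H2bc18, H3c13 and H3c14 share all their exon bases with other genes in GENCODE vM39. Reads there could have been lost, which was not tested.

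Genes that act on the same mRNAs and in the same phase of the cell cycle were set beside them. Genes of DNA replication and S phase (30 genes) held 0.395% of UMIs in HEK and 0.354% in 3T3 cells, and between 0.0121% and 0.0185% in the retinal groups. Of 27 tested, 26 were higher in 3T3 cells than in layer sections and 0 lower, where 26.1% of all genes were higher and 45.6% lower. Only 10 genes of this list passed the filter among the layer libraries alone, so this count is a description. Mcm3, a subunit of the replicative helicase, stood at 407 ± 87.9 CPM in 3T3 cells and 2.26 ± 2.03 CPM in the ONL, Rrm1, a ribonucleotide reductase subunit, at 304 ± 39.5 and 26.9 ± 9.78 CPM, Mcm2 at 316 ± 53.5 and 7.26 ± 3.97 CPM, and Mcm4 at 259 ± 40.1 and 13.3 ± 3.24 CPM. Within the retina 10 were tested. Between ONL and BCL 0 passed by edgeR (0 at an unadjusted p under 0.05), where 18.5% of all genes were higher and 18.2% lower. Between ONL and GCL 1 was higher (Mcm4, 1.0 ± 0.43, adjusted p = 0.0396) and 1 lower, where 29.3% and 32.2% of all genes were, and between BCL and GCL 0 were higher and 1 lower (16.1% and 20.4%). Ccne1, which encodes cyclin E, was the lower one in the ONL (-2.85 ± 0.55) and in the BCL (-2.98 ± 0.76). All 13 tested genes of mitosis were higher in 3T3 cells than in layer sections, beside the same 26.1% of all genes. No gene of mitosis passed the filter among the layer libraries alone, so they were tested through their 3T3 counts and the count is a description. Mki67, the proliferation antigen, stood at 789 ± 110 CPM in 3T3 cells with 2 UMIs in all retinal libraries, Top2a, a topoisomerase, at 660 ± 211 CPM with 0, Cdc20 at 224 ± 42.8 CPM with 0, and Tpx2 at 340 ± 45.8 CPM with 3.8 ± 2.27 CPM in the ONL.

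Genes of histone mRNA processing (14 genes) differed less, at 0.118% of UMIs in 3T3 cells and 0.0724% in the ONL, 0.0641% in BCL and 0.0610% in GCL. Of 13 tested, 7 were higher in 3T3 cells than in layer sections (26.1% of all genes) and 1 lower (45.6%). Slbp, which encodes the stem-loop binding protein and is named here for its role, stood at 65.9 ± 25.2 CPM in 3T3 cells and 15.9 ± 4.85 CPM in the ONL, and was higher in 3T3 cells by 1.81 ± 0.35. Sympk, the scaffold of the cleavage complex, was higher by 0.62 ± 0.15 and Srrt, a factor that links RNA caps to 3′ end processing, by 0.59 ± 0.19. Cpsf2, a cleavage complex subunit, differed by -0.19 ± 0.26 and Npat, the coactivator of histone gene transcription, by -0.36 ± 0.31, neither past the test. Within the retina Npat was at 91.7 ± 16 CPM in the ONL, 45.0 ± 7.93 CPM in BCL and 25.8 ± 3.78 CPM in GCL libraries. It was higher in the ONL than in BCL by 1.32 ± 0.24 and than in GCL by 1.94 ± 0.20. Against BCL, 4 of 12 tested genes of this list were higher in the ONL (Npat, Srrt, Sympk and Cpsf2), where 18.5% of all genes were, and 0 lower (18.2%). Against GCL, 4 were higher (29.3%) and 2 lower (32.2%), among them Ncbp1 (0.77 ± 0.21), a cap-binding protein, and Cstf2 (-0.83 ± 0.24), a cleavage stimulation factor.

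The replication-independent histones were spread in another way. Most of their mRNAs carry poly(A) tails, but the stem-loop was found in H2ax too. They held 0.0890% of UMIs in 3T3 cells, 0.0555% in the ONL, 0.0769% in BCL and 0.0463% in GCL. Of 9 tested, 4 were higher in 3T3 cells than in layer sections (26.1% of all genes) and 2 lower (45.6%). H1f0, the linker histone of differentiated cells, stood at 237 ± 20.4 CPM in 3T3 cells, 63.1 ± 10.6 in the ONL, 116 ± 22.3 in BCL and 119 ± 13.1 in GCL. It was lower in the ONL than in BCL (-0.59 ± 0.20) and GCL (-0.80 ± 0.16), the opposite direction to H1f2 and H1f4. H3f3b, which encodes H3.3, was lower in 3T3 cells than in layer sections (-0.74 ± 0.21) and higher in the ONL than in BCL (0.53 ± 0.15) and GCL (1.97 ± 0.14). Macroh2a1, a macroH2A gene, was also lower in 3T3 cells (-1.43 ± 0.22), and within the retina it was highest in the BCL at 285 ± 28.5 CPM. H2ax, the H2A variant of DNA damage signaling, was higher in 3T3 cells (1.92 ± 0.21) and higher in the ONL than in BCL (0.80 ± 0.29) and GCL (0.95 ± 0.22). Of the 6 clustered genes listed as known to give polyadenylated transcripts, 5 were found by name in the mouse. They held 0.0242% of UMIs in 3T3 cells and 0.0413% in the ONL, but 0.0133% in BCL, 0.00652% in GCL, 0.00779% in TH+ and 0.00771% in TH- libraries. Of the 2 tested against layer sections (H1f2 and H2bc4) 0 passed in either direction, while both were higher in 3T3 cells than in amacrine sections. H1f2 supplied most of that share in the ONL.

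H13, the gene that shares only its letters with the rule, held 0.0184% of UMIs in 3T3 cells, 0.00522% in the ONL, 0.00650% in the BCL, 0.00593% in the GCL, 0.0107% in TH+ and 0.00871% in TH- cells.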

How the data were processed

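UMI counts per gene were used as deposited. Per the labels and the study's methods, the authors kept reads with an exact barcode, mapped them with STAR 2.7.9a to hg38 or mm39 without multimappers, assigned them to exons with featureCounts at its default settings, which do not use strand, and deduplicated with UMI-tools 1.1.1 and SAMtools 1.9. The members and lists were chosen with earlier results of these data known.

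Gene names were found by rule, and H13 was left out by hand. The deeper repeat of 1 well (138882 HEK and 296198 3T3 UMIs) entered no main result. It served as an alternative to that well and as a library in the search for outlying ones. The pooled layer library was not used. A share over members has no test, and how often the values of groups do not overlap was not counted over all genes. Genes were tested with edgeR 4.0.16 (TMM, filterByExpr with min.count 3 and min.total.count 10, quasi-likelihood F test, Benjamini-Hochberg at 0.05 over all genes tested) in R 4.3.3. Wells of 3T3 cells were fitted with layer sections and amacrine sections, each summed over its libraries; layers and amacrine libraries had fits of their own. SE was the log2 difference divided by the root of F. Alternatives were DESeq2 1.42.0, RLE size factors, other filters, leaving out mitochondrially encoded genes or 1 replicate, the deeper repeat in place of its well, and the section as a block. Libraries with the same number came from the same section, which pairs them by design; the deviations of same-section libraries from their group means correlated with r of 0.0182 to 0.0695 in the layers and 0.0351 to 0.403 in the amacrine experiment.

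On simulated counts for 3T3 cells against layer sections (9972 genes), 73% of 2-fold and 100% of 4-fold changes were recovered, for ONL against BCL (11292 genes) 80% and 99%, and for TH+ against TH- (6057 genes) 39% and 99%. Changes were placed only in genes above a set mean level, with a common dispersion for all genes. These rates therefore do not cover genes at low levels, such as most members in the retina.

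Members named with values were the 8 with most UMIs in each kind of sample, those called in a fit (at most the 15 with the smallest adjusted p), and from other lists the 4 genes with most UMIs and at most 6 called within the retina. Further members and Slbp are named for their role or after their values were seen. Stem-loops were read from GRCm39 with GENCODE vM39; the deposited length equaled the vM39 exon length for 55 of 63 members. Python 3.11.15, pandas 2.3.3, scipy 1.17.1 and matplotlib 3.10.9 were used. A gene of the marker lists is not reported here and entered no marker sum.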

Additional observations from a re-analysis of the deposited data

Results flagged for a closer look

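Of 69 groups of 4 or 5 libraries that were looked at, 5 held a library set apart from the others by Dixon's test, and chance flags about 1 in 20 groups. The groups of HEK and of 3T3 cells reached 4 libraries only by counting the deeper repeat of a well beside that well, and none of them was flagged. In the ONL, section 3 had the highest share of H2A genes (0.00205% of UMIs), and section 2 the highest level of H1f4 (178 CPM). In the GCL, section 1 had the lowest share of all members (0.0280%) and of the core histones (0.0134%). Among TH+ libraries, section 4 had the highest share of core histones (0.0281%).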

How the results depend on the processing

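Of the counts of members and the group shares, 186 values under an alternative stayed within their limits and 37 moved. Without a filter on low counts 25 of 45 members tested were higher in 3T3 cells than in layer sections (3299 of all 25816 genes), and with the default filter 7 of 9 (1957 of 6364). Against amacrine sections the default filter gave 8 of 9 (1891 of 6364). DESeq2 and the fit without a filter each gave 1 member lower in 3T3 cells than in either retinal set, where the filtered fit had 0. DESeq2, RLE size factors and leaving out mitochondrially encoded genes each gave 2 members lower in ONL than in BCL, and the default filter 3 of 5 higher in ONL than in GCL (2813 of 7956 genes). With 1 section left out, 0 to 2 members were lower in ONL than in BCL, 3 to 6 higher and 0 to 2 lower in ONL than in GCL. Relative to UMIs that are not mitochondrially encoded the share was 0.392% in HEK, 0.0854% in ONL and 0.0357% in GCL. Without the leading member it was 0.271% in HEK, 0.0423% in ONL, 0.0376% in BCL, 0.0234% in GCL and 0.0258% in TH-, and without H1 genes 0.242% in HEK, 0.121% in 3T3, 0.0240% in ONL, 0.0252% in BCL, 0.0169% in GCL, 0.0147% in TH+ and 0.0190% in TH-. With H13 added, after the data were seen, it was 0.0866% in ONL, 0.0547% in BCL, 0.0384% in GCL, 0.0411% in TH+ and 0.0411% in TH-. H1f1 lost its call between ONL and GCL with DESeq2 (0.90, adjusted p = 0.158), RLE, no filter and no mitochondrial genes, and H2bc4 with DESeq2 (1.26, adjusted p = 0.0584). The cause was not tested.

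Some differences that missed the threshold changed sign with 1 replicate left out. H4c3 between 3T3 cells and layer sections ranged from -0.16 to 0.51. Between TH+ and TH- cells H1f2 ranged from -0.11 to 0.24 (-0.036 without a filter), H1f4 from -0.14 to 0.63, H4c3 from -0.26 to 0.52 and H4c4 from -0.65 to 0.18. The default filter left 0 members in the amacrine fit.

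Libraries of the same section are paired by design. With the section as a replicate block, 3 members were higher and 1 lower in ONL than in BCL, 6 and 1 in ONL than in GCL, 2 and 0 in BCL than in GCL, and 0 in TH+ than in TH- cells. The block changed no call of a member.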
